A study of Caenorhabditis elegans with 16 samples.

Results

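The proteasome and the enzymes that attach ubiquitin to its substrates were followed in whole *C. elegans* by 37 genes. These are all entries, of 8348 listed, whose name begins with *pas-*, *pbs-*, *rpt-*, *rpn-*, *uba-*, *ubc-*, *cul-* or *skr-* followed by a number. 17 encode proteasome subunits and 20 carry names of ubiquitin conjugation genes, that is activating enzymes, conjugating enzymes, cullins and Skp1-related adaptors. The genes were chosen by name, not by their values. The table used here covers 5 of the 7 annotated protein-coding *pas* genes, 3 of 7 *pbs*, 4 of 6 *rpt*, 5 of 13 *rpn*, 1 of 3 *uba*, 9 of 21 *ubc* and 2 of 6 *cul* genes. It also holds 8 *skr* entries, of which *skr-11* is annotated as a pseudogene. The other genes of these families were not analysed here.

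RNA was sequenced from 4 groups of 4 replicates: *osm-3(dh441)IV* mutants with tunicamycin (TM), *osm-3* mutants with vehicle, WT (N2) animals with TM and WT animals with vehicle. All animals were grown to day 1 of adulthood at 20 °C and then kept for 6 hr on plates with 10 µg/mL TM or vehicle before whole worms were frozen. The *dh441* allele, from a screen for TM resistance, has an early stop codon in the eighth exon of *osm-3*, a kinesin gene needed for sensory cilia, and the mutants are represented by this 1 allele. The study asked how WT animals and the resistant mutants respond to TM, which blocks N-linked glycosylation and so burdens protein folding in the endoplasmic reticulum (ER).

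The proteasome is a barrel of stacked rings, in which alpha subunits (*pas*) form the gate and beta subunits (*pbs*) the proteolytic chamber. A regulatory particle made of ATPases (*rpt*) and other subunits (*rpn*) caps the barrel, binds ubiquitinated proteins and unfolds them. Ubiquitin reaches these substrates through an activating enzyme (E1, *uba*), a conjugating enzyme (E2, *ubc*) and a ligase, and cullins (*cul*) are the scaffolds of a large class of ligases. In those built on CUL-1, Skp1-related proteins (*skr*) link the substrate receptor to the cullin. Proteins that fail to fold in the ER are exported and degraded along this route.

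The deposited log2 values convert back to whole reads, so levels are given below as normalized read counts, that is reads divided by the library's size factor. Libraries held 4173301 to 8144875 reads on named genes. Differences were tested on the deposited log2 scale, which compresses differences, most at low counts, with limma. Tested were the 4115 genes with a mean no less than 1 log2 unit over that of a gene without reads. An adjusted p under 0.05 (Benjamini-Hochberg over these genes) is called a pass. The libraries varied in their spread around the group means. *osm-3* TM replicate 4 had the lowest library weight estimated by limma (0.25, beside 0.31 to 5.11 in the other 15). It was not alone, since weights were also low in WT TM replicates 1 (0.31) and 4 (0.49). *osm-3* TM replicates 2 and 3 had 0.38 each. Results that rest on *osm-3* TM replicate 4 are also given without it. The treatment was checked with *hsp-4*, the ER chaperone BiP, which was higher by 1.02 ± 0.13 log2 units (SE, adjusted p = 0.00018 by limma) with TM than with vehicle in WT animals, and differed by 0.12 ± 0.13 in *osm-3* mutants (adjusted p = 0.61). The study's methods call the replicates biological and report a snaking order of collection, meant to reduce batch effects. They do not say which libraries shared a culture or a day. The p-values set each difference against the spread between these samples, estimated over all groups.

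All 17 proteasome subunits passed the filter on low values, as did 16 of the 20 ubiquitin conjugation genes. Per kilobase of the longest transcript, *pas-5*, an alpha ring subunit, had the highest level of the 37 genes with 7741 ± 1092 normalized reads per kb in *osm-3* mutants with TM, 7208 ± 491 in *osm-3* mutants with vehicle, 9027 ± 1016 in WT animals with TM and 8722 ± 291 in WT animals with vehicle (SD, n = 4 each). *rpt-2*, an ATPase, followed with a mean of 4113 per kb over the 16 libraries, and then *pbs-7* with 3441 and *pas-2* with 2777. The remaining proteasome subunits lay between 873 (*rpn-13*, a ubiquitin receptor) and 2351 (*rpt-4*). These subunits were closely spaced, such as *rpn-3*, *rpn-5* and *rpn-2* with 2181, 2135 and 2125 per kb, and their order was not tested.

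The ubiquitin conjugation genes spanned a wider range. *ubc-9*, the E2 for the ubiquitin-like protein SUMO, and *ubc-25* led with 1987 and 1754 normalized reads per kb, followed by the E1 gene *uba-1* with 1499 and by *ubc-6*, whose yeast namesake is an E2 of the ER membrane, with 956. The cullins *cul-4* and *cul-1* stood at 693 and 539.9 per kb. The *skr* genes that passed the filter lay between 162 (*skr-12*) and 658 (*skr-3*), and *ubc-23* was the weakest tested gene with 88.9. The 4 genes under the filter were the pseudogene *skr-11* (9 to 46 reads per library), *ubc-17* (25 to 51), *ubc-22* (2 to 13) and *ubc-21* (0 to 6). The filter left them out of the tests, and no test result between groups is given for them.

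**Figure D1:**
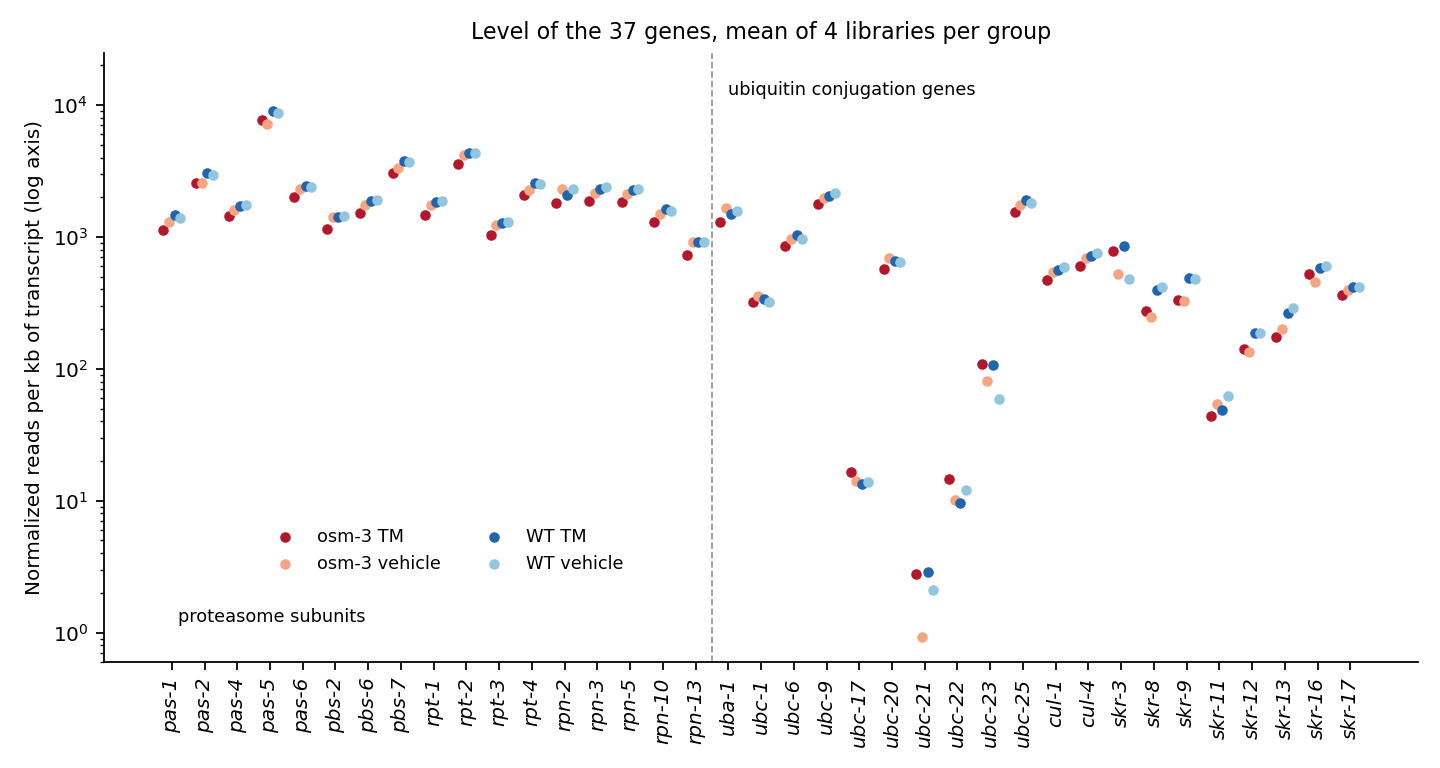
Normalized reads per kb of the longest transcript (log axis) of the 37 genes, with 1 point for the mean of 4 libraries in each group, proteasome subunits left and ubiquitin conjugation genes right of the dashed line. Proteasome subunits lie from 873 (*rpn-13*) to 8175 (*pas-5*) on average over all libraries, while the conjugation genes run from 2.18 (*ubc-21*) to 1987 (*ubc-9*).

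The first question was whether TM changes these genes in WT animals. 2 of the 33 tested genes passed, *skr-3* and *ubc-23*, both higher with TM, and 0 were lower. Over all 4115 tested genes 1.56% passed in this comparison, 0.826% as higher. *skr-3* encodes a Skp1-related adaptor and *ubc-23* belongs to the E2 family. Since whole animals were sequenced, a change in the number of cells of a type and a change in RNA per cell cannot be told apart.

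*skr-3* had 637, 714, 815 and 506 normalized reads in the 4 WT libraries with TM, against 374, 376, 467 and 280.5 with vehicle. All 4 TM libraries lay above all 4 vehicle libraries. The difference was 0.62 ± 0.14 log2 units on the deposited scale (SE, adjusted p = 0.033 by limma), and the ratio of the mean counts was 1.78. *ubc-23* had 126, 121.3, 147 and 113 normalized reads in WT libraries with TM, against 81.8, 83.3, 68.2 and 50.8 with vehicle. These groups did not overlap either, as in 2.31% of all tested genes that were higher without overlap. The difference of *ubc-23* was 0.37 ± 0.081 on the compressed deposited scale (SE, adjusted p = 0.021 by limma) and 0.85 ± 0.18 with limma voom on the recovered reads (adjusted p = 0.019), and its ratio of mean counts was 1.79.

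Both calls were easily lost when single libraries were left out. The call of *skr-3* was lost without any 1 of WT vehicle replicates 1, 2 and 4, WT TM replicates 1, 2 and 3 or *osm-3* vehicle replicate 3, with an adjusted p of up to 0.16 by limma, and with quantile normalization (0.054), and the call of *ubc-23* without any 1 of WT vehicle replicates 3 and 4 or WT TM replicates 1 and 3 (up to 0.10). Both kept their direction in all 28 alternatives in which they were tested.

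Among proteasome subunits 0 of 17 passed in WT animals, and 0 had an unadjusted p under 0.05, with limma on the log2 values, beside 8.99% of all tested genes. Limma voom on the recovered reads also gave 0 calls. Their differences ran between -0.16 and 0.08 log2 units with a median of -0.013, beside -0.016 for all tested genes, and their standard errors between 0.091 and 0.19. *rpn-2*, the large scaffold subunit of the regulatory particle, had the most negative difference. It held 8567, 5270.3, 5638 and 6415 normalized reads in WT libraries with TM, against 7551, 6539, 6358 and 8132 with vehicle, and these groups overlapped (-0.16 ± 0.19, SE). The conjugation genes had a median of -0.0078, with 8 above and 8 below 0. The other 14 of them lay between -0.09 (*uba-1*) and 0.08 (*ubc-6*), beside 0.62 for *skr-3* and 0.37 for *ubc-23*.

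In *osm-3* mutants 0 of the 33 genes passed with TM against vehicle (limma), as did 0.0729% of all tested genes, and limma voom also gave 0. At an unadjusted p under 0.05 there were 5 genes, 2 higher and 3 lower, beside 4.16% (higher) and 7.83% (lower) of all tested genes. *skr-3* had 619, 663, 759.7 and 413 normalized reads in *osm-3* libraries with TM, against 397, 502, 429 and 324 with vehicle. The groups overlapped only through TM replicate 4. The difference was 0.41 ± 0.14 log2 units (SE, adjusted p = 0.36 by limma), and the ratio of mean counts 1.49. *ubc-23* had 129.6, 125, 161 and 107 in *osm-3* libraries with TM, against 107, 114, 90.2 and 73.6 with vehicle, a difference of 0.20 ± 0.081 (adjusted p = 0.36) that also overlapped through TM replicate 4.

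Proteasome subunits lay mostly below 0 in *osm-3* mutants with TM: 15 of 17 had a negative difference, the median was -0.20, and the range -0.38 (*rpn-2*) to 0.09 (*pas-5*). The median of all tested genes was -0.036, and 58.2% of them lay below 0. *rpn-2* had 5851, 4060.1, 4363 and 8057 normalized reads in *osm-3* libraries with TM, against 7259, 5818, 6851 and 8720.5 with vehicle, a difference of -0.38 ± 0.19 (SE, adjusted p = 0.36 by limma). Here TM replicate 4 was above the other 3. The conjugation genes had a median of -0.11 with 10 of 16 below 0, and *uba-1*, the E1, was the lowest of them at -0.37 ± 0.18 (adjusted p = 0.36). *uba-1* had 4779.8, 3434, 3884 and 6643 normalized reads with TM, against 5874, 4801, 6055 and 7239 with vehicle, which overlapped through TM replicate 4.

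The number of calls depended on TM replicate 4 of the *osm-3* mutants. Without it 8 of the 33 genes passed in the mutants, beside 19.3% of all tested genes: *skr-3* and *ubc-23* as higher, and *pbs-2*, *rpn-2*, *rpn-13*, *rpt-1*, *uba-1* and *ubc-20* as lower. Same-numbered TM and vehicle libraries of a genotype deviated together (r = 0.33 to 0.86 in *osm-3* mutants and 0.25 to 0.58 in WT animals). Libraries of different number were not compared, so a pairing by number was assumed and not shown. The 0.86 was that of replicate 4, whose vehicle library stayed in the fit when TM replicate 4 was left out. Leaving out both was not tried. Blocking on the replicate number within each genotype gave 4 genes that passed, beside 8.75% of all tested genes, namely *skr-3* higher (adjusted p = 0.0073 by limma) and *pbs-2*, *rpn-2* and *uba-1* lower. With 1 block term shared by both genotypes only *skr-3* passed (adjusted p = 0.013).

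The difference between the TM responses, *osm-3* minus WT, was tested as an interaction. 0 of 33 genes passed (limma), 0 had an unadjusted p under 0.05, and limma voom gave 0, beside 0.486% of all tested genes that passed and 4.91% with an unadjusted p under 0.05. For *skr-3* the difference between responses was -0.20 ± 0.20 log2 units (SE) and for *ubc-23* -0.16 ± 0.11, so their increases with TM were not shown to differ between genotypes. The proteasome subunits had a median of -0.20, 16 of 17 below 0, and the conjugation genes -0.13, 13 of 16 below 0. The median of all tested genes was -0.050, and 62.6% of them lay below 0. For single subunits the standard errors ran from 0.13 to 0.27. The difference was larger than its standard error in 10 of 17, beside 1341 of all 4115 tested genes. The largest increase was that of *skr-16*, another Skp1-related gene, at 0.14 ± 0.18, and the largest decrease that of *uba-1* at -0.28 ± 0.25. *skr-16* had 239, 307, 389 and 214 normalized reads in *osm-3* mutants with TM and 245, 291, 267 and 197 with vehicle. In WT animals it had 227, 333, 400.0 and 318 with TM and 293, 354, 407 and 258 with vehicle, and all 4 groups overlapped. In WT animals *uba-1* had 6832, 4711, 4371 and 5579 with TM, against 6041, 5156, 5020.4 and 6474 with vehicle, and these groups overlapped too.

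**Figure D2:**
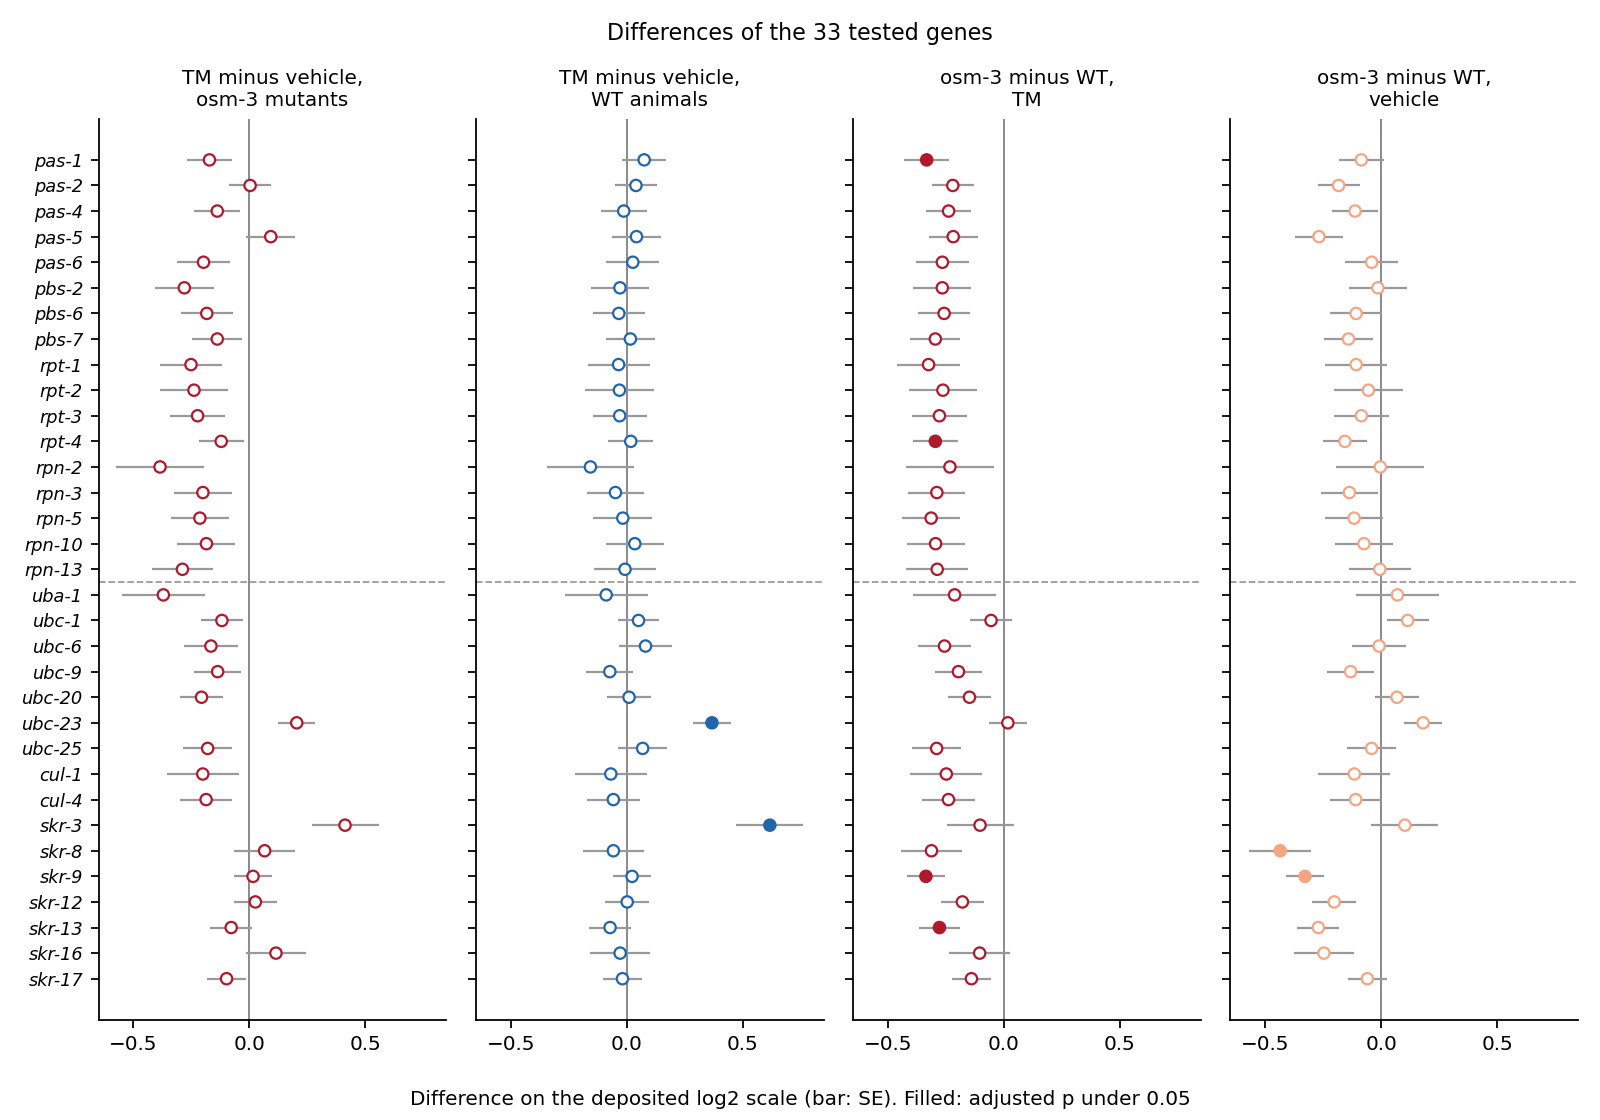
Differences of the 33 tested genes on the deposited log2 scale with their SE, TM minus vehicle in *osm-3* mutants and in WT animals (left panels) and *osm-3* minus WT with TM and with vehicle (right panels), filled where the adjusted p was under 0.05. *skr-3* and *ubc-23* are the filled points with TM in WT animals (0.62 and 0.37), and all 17 proteasome subunits lie below 0 in both right panels.

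The second question was how *osm-3* mutants differ from WT animals. With TM, 4 of the 33 genes passed and all were lower in *osm-3* mutants: the *skr* genes *skr-9* and *skr-13* and the proteasome subunits *pas-1* and *rpt-4*. Over all tested genes 19.2% passed, 9.74% as lower, beside 12.1% (4 of 33) of these genes, which is near the share of genes in general. With vehicle 2 genes passed, *skr-9* and *skr-8*, both lower, beside 10.6% of all tested genes (4.28% as lower). The TM libraries and the vehicle libraries of the genotypes are separate samples, while each TM comparison above shares its libraries with the genotype comparisons. The genotype comparisons with TM and with vehicle are still not independent. Same-numbered libraries of a genotype deviated together, and all groups share an estimate of the spread.

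*skr-9* was the gene lower in *osm-3* mutants under both treatments. With TM it had 173, 193, 195 and 217 normalized reads in *osm-3* libraries, against 285, 303, 299 and 255 in WT libraries. With vehicle it had 168, 243, 213 and 146 in *osm-3* libraries, against 277, 272, 266 and 298 in WT libraries. Neither pair of groups overlapped. The differences were -0.34 ± 0.081 with TM (SE, adjusted p = 0.0071 by limma) and -0.33 ± 0.081 with vehicle (adjusted p = 0.011), and the ratios of mean counts 0.68 and 0.69. With limma voom both differences were -0.56, with adjusted p of 0.0080 and 0.012. Leaving out *osm-3* vehicle replicate 4 gave an adjusted p of 0.0501 with vehicle (limma), and the call with TM was made in all 27 alternatives. In *osm-3* mutants against WT animals, 2 of the 33 genes with TM and 4 with vehicle were lower without overlap. Over all 4115 tested genes these counts were 351 and 454.

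*skr-8* had 127, 200.4, 138 and 109 normalized reads in *osm-3* libraries with vehicle, against 212, 260.3, 231 and 269 in WT libraries. The groups did not overlap, with a difference of -0.44 ± 0.13 (SE, adjusted p = 0.043 by limma) and a ratio of mean counts of 0.59. With TM it had 89.1, 164, 237 and 150.0 in *osm-3* libraries, against 156, 248, 242 and 276 in WT libraries, which overlapped (-0.31 ± 0.13, adjusted p = 0.11). The call of *skr-8* with vehicle was lost in 13 of 27 alternatives. In 10 of these 1 library was left out, among them any 1 WT vehicle replicate and *osm-3* vehicle replicates 1, 3 and 4, with an adjusted p of up to 0.13. The others were centring on library medians (0.076), eBayes without trend (0.052) and limma voom, which gave -0.78 ± 0.25 (SE, adjusted p = 0.053).

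*skr-13* had 77.6, 87.5, 101 and 92.3 normalized reads in *osm-3* libraries with TM, against 96.5, 149, 172 and 133 in WT libraries, overlapping through WT TM replicate 1. Its difference with TM was -0.28 ± 0.090 (SE, adjusted p = 0.039 by limma), and -0.60 ± 0.20 with limma voom (adjusted p = 0.040). With vehicle it had 86.3, 148, 93.6 and 84.1 in *osm-3* libraries, against 153, 142, 163 and 141 in WT libraries (-0.27 ± 0.090, adjusted p = 0.065). Only *osm-3* vehicle replicate 2 reached the WT range. *skr-12* had 48.7, 58.7, 104 and 81.8 in *osm-3* libraries with TM, against 72.2, 119.6, 109 and 90.6 in WT libraries (-0.18 ± 0.094, adjusted p = 0.18). With vehicle *skr-12* had 55.5, 93.2, 74.9 and 53.5, against 85.4, 99.5, 98.5 and 103 (-0.20 ± 0.094, adjusted p = 0.21), and both pairs of groups overlapped.

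These 4 *skr* genes are neighbours. In the order *skr-13*, *skr-9*, *skr-8*, *skr-12* they lie on chromosome IV between 17162097 and 17167792 (WBcel235), within 5696 bases. They are related copies, and reads that fit more than 1 of them may have been split between them, so the single values are uncertain. Their summed normalized count is less exposed to such splitting. It ran from 388 to 637 in *osm-3* mutants with TM, against 609 to 822 in WT animals with TM, and from 393 to 685 in *osm-3* mutants with vehicle, against 728 to 811 in WT animals with vehicle. The mean sums were 517 ± 103 in *osm-3* mutants and 751 ± 99.5 in WT animals with TM, and 508 ± 129 in *osm-3* mutants and 768 ± 34.5 in WT animals with vehicle (SD, n = 4 each). The 4 genes were grouped after their values were seen, and the sum was not tested. The other tested *skr* genes, which lie elsewhere in the genome, were at -0.10 (*skr-3*), -0.10 (*skr-16*) and -0.14 (*skr-17*) with TM. With vehicle they were at 0.10, -0.25 and -0.06. None of these 3 passed, although *skr-16* passed as lower with vehicle when the replicate number was blocked. Most *skr* genes of the genome were not analysed here.

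**Figure D3:**
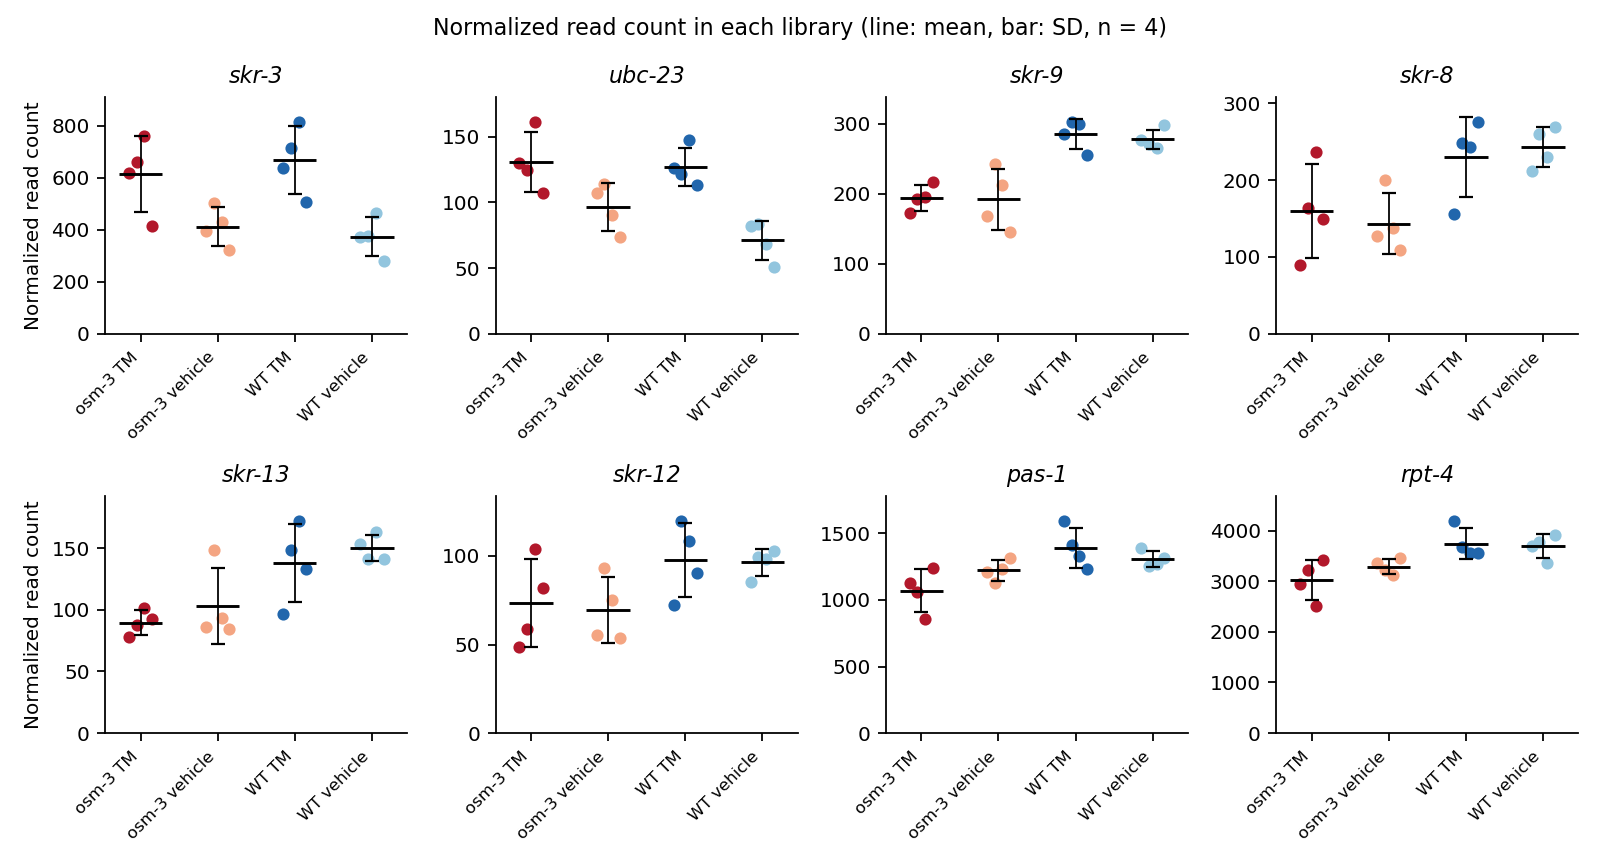
Normalized read counts of 8 genes in each of the 16 libraries (points), with the mean (line) and SD (bar) of each group of 4. *skr-3* and *ubc-23* are higher with TM than with vehicle in WT animals, and *skr-9* lies between 146 and 243 in *osm-3* mutants, below all WT libraries (255 to 303).

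With TM, the mean of every tested proteasome subunit was lower in *osm-3* mutants, set against WT animals. The 17 differences ran from -0.33 (*pas-1*) to -0.22 (*pas-5*), with a median of -0.28, and 14 of 17 had an unadjusted p under 0.05, beside 22.1% of all tested genes that were lower at that level. The median of all tested genes was -0.10, and 67.2% of them lay below 0. Of the 17, *pas-1* and *rpt-4* passed the adjusted threshold. *pas-1*, an alpha ring subunit, had 1124, 1058, 858 and 1239.7 normalized reads in *osm-3* libraries with TM, against 1592, 1411, 1333 and 1235 in WT libraries (-0.33 ± 0.096, SE, adjusted p = 0.021 by limma). The groups met at *osm-3* replicate 4 and WT replicate 4. *rpt-4*, an ATPase, had 2951, 3214, 2508 and 3417 in *osm-3* libraries, against 4185, 3682, 3548 and 3549 in WT libraries, without overlap (-0.30 ± 0.096, adjusted p = 0.039). Of all tested genes 8.53% were lower without overlap in this comparison. The ratios of mean counts were 0.77 for *pas-1* and 0.81 for *rpt-4*.

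By role, the 5 alpha subunits lay between -0.33 and -0.22, the 3 beta subunits at -0.27 (*pbs-2*), -0.26 (*pbs-6*) and -0.30 (*pbs-7*), and the 4 ATPases between -0.33 (*rpt-1*) and -0.26 (*rpt-2*). The 5 other subunits of the regulatory particle lay between -0.31 (*rpn-5*) and -0.23 (*rpn-2*), with the ubiquitin receptors *rpn-10* and *rpn-13* both at -0.29. The standard error of a single subunit had a median of 0.12, and the 17 subunits lay within a range no wider than that. That error holds variation between libraries that most subunits share, so it does not measure differences between them, which were not tested. The conjugation genes were more dispersed, from -0.34 (*skr-9*) to 0.02 (*ubc-23*), with a median of -0.20 and 15 of 16 below 0. *ubc-25* lay at -0.29, *ubc-6* at -0.26, *cul-1* at -0.25, *cul-4* at -0.24, *uba-1* at -0.21, *ubc-9* at -0.20, *ubc-20* at -0.15 and *ubc-1*, the homologue of the yeast E2 Rad6, at -0.06, and none of these passed.

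With vehicle the 17 subunits also all lay below 0, but closer to it, with a median of -0.11, beside -0.041 for all tested genes, of which 61.2% lay below 0. Their range was -0.27 (*pas-5*) to -0.0039 (*rpn-2*), 0 passed with limma or with limma voom, and 1 had an unadjusted p under 0.05, beside 11.6% of all tested genes that were lower at that level. *pas-5* had 6092, 6767, 5992 and 5802 normalized reads in *osm-3* libraries, against 7469, 7776, 7412 and 7172 in WT libraries, without overlap (-0.27 ± 0.11, SE, adjusted p = 0.12 by limma). *pas-2* lay at -0.18 ± 0.091, also without overlap. Of all 4115 tested genes 454 were lower without overlap in this comparison. The conjugation genes had a median of -0.085 with 11 of 16 below 0, and *ubc-23* had the largest increase at 0.18 ± 0.081 (adjusted p = 0.19). Same-numbered libraries also deviated together between genotypes with vehicle (r = 0.18 to 0.50), but libraries of different number were not compared. A block term on the number was fitted over all 16 libraries, so it also paired the genotypes with TM, where a pairing is uncertain. With this term 5 genes passed with vehicle, all lower (*pas-5*, *skr-8*, *skr-9*, *skr-13* and *skr-16*), beside 17.9% of all tested genes in either direction.

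Averaged over the 17 subunits, the log2 value was 11.29, 11.23, 10.99 and 11.50 in the 4 *osm-3* libraries with TM, against 11.74, 11.46, 11.43 and 11.47 in WT libraries with TM. Replicate 4 was the *osm-3* library within the WT range. With vehicle the averages were 11.46, 11.31, 11.42 and 11.54 in *osm-3* libraries, against 11.59, 11.48, 11.44 and 11.63 in WT libraries, and these groups overlapped. Without *osm-3* TM replicate 4, 21 of the 33 genes passed as lower in *osm-3* mutants with TM, and the median of the subunits was -0.37. Of all tested genes 38.8% then passed, a share that counts both directions and so is not like for like. Leaving out other libraries changed the number to 1 without WT TM replicate 2 and to 2 without any 1 of *osm-3* TM replicates 1 and 3, WT TM replicate 3 and WT vehicle replicate 1. Over all alternatives the call of *rpt-4* was lost in 14 of 28 and that of *skr-13* in 9 of 27. That of *pas-1* was lost in 4 of 28, namely with only the groups compared and without any 1 of WT TM replicates 1 and 2 and *osm-3* TM replicate 3. Scaling mattered too, since quantile normalization gave medians of -0.15 for the subunits and -0.11 for the conjugation genes.

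**Figure D4:**
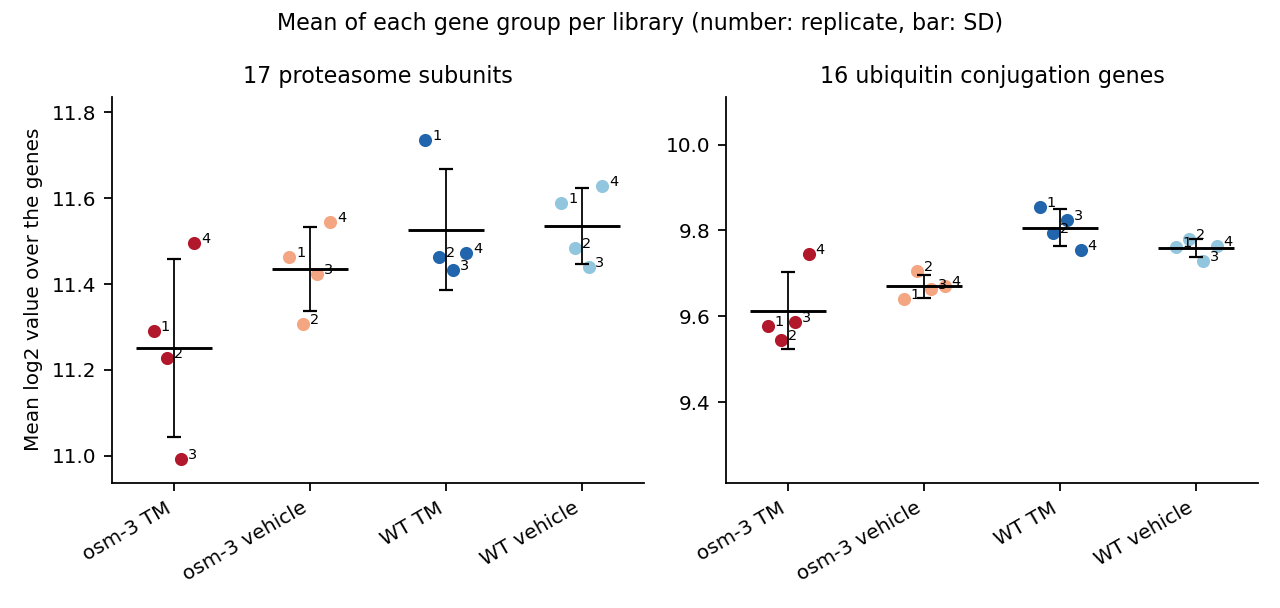
Mean log2 value of the 17 proteasome subunits (left) and the 16 tested ubiquitin conjugation genes (right) in each library (points, numbered by replicate), with group mean (line) and SD (bar). Both axes span 0.9 log2 units and do not start at 0. For the subunits *osm-3* TM replicate 4 (11.50) is the highest and replicate 3 (10.99) the lowest of the 4 *osm-3* libraries with TM.

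The proteasome is made in all cells, and the levels of markers of single tissues are therefore given beside the results. The 9 tested germline and oocyte genes of a marker list had a median of -0.36 with TM against vehicle in *osm-3* mutants and -0.32 in *osm-3* mutants against WT animals with TM, all 9 below 0 and 0 passing in both. Their summed normalized count ran from 22707 to 39565 in *osm-3* mutants with TM, 31296 to 41297 in *osm-3* mutants with vehicle, 29753 to 43111 in WT animals with TM and 34672 to 42803 in WT animals with vehicle. In *osm-3* TM replicate 4 it was 39565, against 22707 to 28700 in the other *osm-3* libraries with TM. The 9 tested sperm (*msp-*) genes were higher in *osm-3* mutants, all passing, by a median of 1.32 with TM and 1.13 with vehicle. Their summed counts were 2987 to 6464 in *osm-3* mutants and 692 to 992 in WT animals with TM, and 3419 to 5699 in *osm-3* mutants and 808 to 1287 in WT animals with vehicle. Of 40 tested collagen (*col-*) genes, 37 passed as higher in *osm-3* mutants with TM (9.50% of all tested genes) and 8 with vehicle (6.37%), with medians of 1.05 and 0.31. With TM against vehicle in WT animals 39 of the 40 lay below 0, with a median of -0.31, and 5 passed as lower, beside 0.729% of all tested genes. The summed counts of the listed collagen genes were 652042 to 850959 in *osm-3* mutants and 394802 to 525676 in WT animals with TM, and 682088 to 828998 in *osm-3* mutants and 509720 to 677687 in WT animals with vehicle. The 2 yolk (*vit-*) genes had medians of -0.50 with TM in *osm-3* mutants, -0.35 with TM in WT animals and, for *osm-3* mutants against WT animals with TM, -0.26, and neither passed in any of these comparisons. No germline or sperm gene of the lists was at 0 in any group. The part of these tissues in the results above was not tested.

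The subunits also varied with the length of their transcripts. Across the 17 subunits the difference with TM in *osm-3* mutants correlated with log2 transcript length at r = -0.67 (Spearman's rho = -0.75), and in WT animals at r = -0.75 (rho = -0.65), as a description over genes that share libraries. In *osm-3* mutants *pas-5* (855 bases) lay at 0.09 and *pas-2* (842 bases) at 0.00, while *rpn-2* (3102 bases) lay at -0.38. Over all 4084 tested genes with a known length r was -0.41 in *osm-3* mutants and -0.14 in WT animals. Library by library, the slope of all tested genes on length was most negative in *osm-3* TM replicates 2 and 3 (-0.16 and -0.11 log2 units per doubling) and most positive in *osm-3* vehicle replicate 4 (0.095), WT TM replicate 1 (0.087) and *osm-3* TM replicate 4 (0.078). The log2 value of *rpn-2* minus that of *pas-5* was -0.18, -0.93, -0.45 and 0.44 in *osm-3* libraries with TM and 0.25, -0.21, 0.19 and 0.57 with vehicle. After a length trend was subtracted from each library, a step chosen after seeing the data, the median of the subunits with TM in *osm-3* mutants was -0.20 with 0 of 33 genes passing. The *osm-3* against WT median with TM was then -0.25, and 8 genes passed, all lower (*pas-1*, *pas-2*, *pas-5*, *pbs-7*, *skr-8*, *skr-9*, *skr-12* and *skr-13*). Of all tested genes 20.0% passed in either direction.

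**Figure D5:**
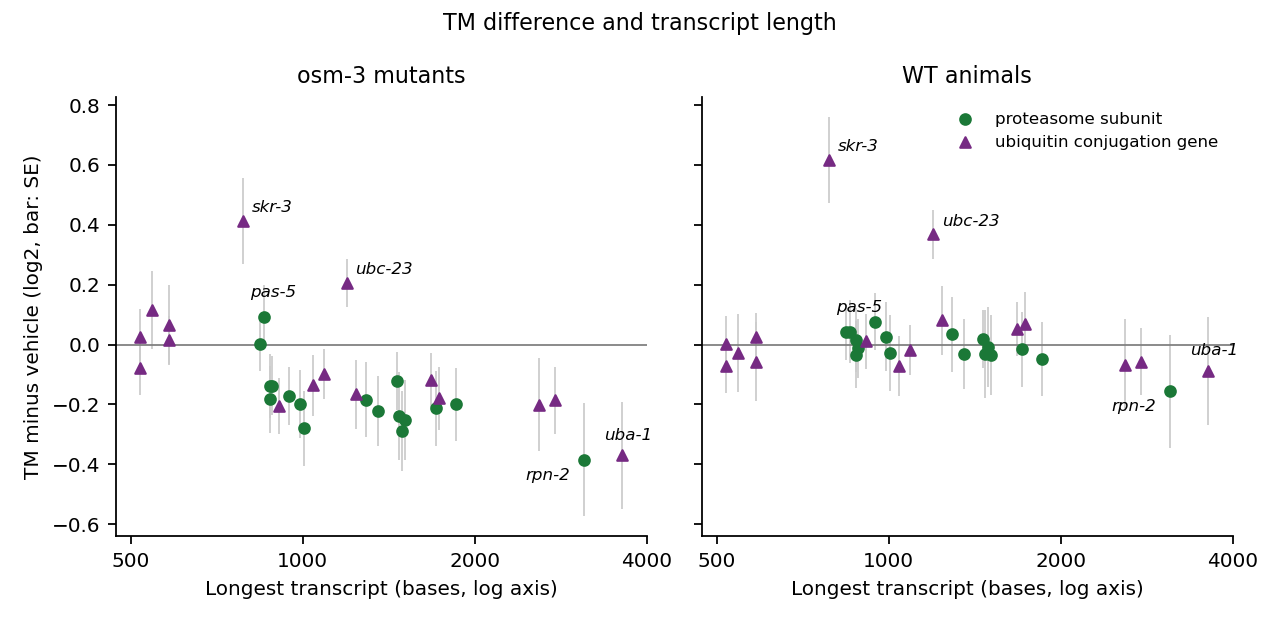
TM minus vehicle on the deposited log2 scale (bar: SE) against the length of the longest transcript (log axis) for the 33 tested genes, in *osm-3* mutants (left) and WT animals (right). In *osm-3* mutants the proteasome subunits run from 0.09 for *pas-5* to -0.38 for *rpn-2*, and *skr-3* and *ubc-23* lie above the others in both panels.

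Proteasome subunits varied together. The deviations of the 16 libraries from their group means correlated between subunits with a median r of 0.82 over 136 pairs, beside 0.011 over 120 pairs of conjugation genes. These are descriptions, since all pairs share the same libraries and the length trend described above. *rpn-5*, *rpn-3* and *rpt-3* were closest to the mean of the other subunits (r = 0.99, 0.98 and 0.98), whereas *pas-2* and *pas-5* were not (-0.08 and -0.30). Among conjugation genes *ubc-6*, *cul-1*, *uba-1* and *cul-4* were most like the subunits (0.95, 0.93, 0.86 and 0.85). *skr-16*, *skr-3*, *skr-8*, *skr-13* and *ubc-23* deviated the other way (-0.94, -0.75, -0.69, -0.64 and -0.63).

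Of 70 other genes of the ubiquitin pathway on a list, 29 were listed in the table and tested. With TM against vehicle 0 of 29 passed in *osm-3* mutants and 0 in WT animals. In *osm-3* mutants against WT animals all 29 lay below 0 with TM, with a median of -0.20, beside -0.10 for all tested genes, of which 67.2% lay below 0. The 3 genes that passed as lower (10.3%, near the 9.74% of all tested genes) were *sel-1*, a component of the ER-associated degradation complex (-0.50 ± 0.11, SE, adjusted p = 0.0041 by limma), *ddi-1*, an aspartic protease (-0.27 ± 0.091, 0.042), and *ula-1*, a subunit of the enzyme that activates the ubiquitin-like protein NEDD8 (-0.26 ± 0.084, 0.036). With vehicle 23 of 29 lay below 0, the median was -0.075, and 0 passed.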

How the data were processed

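Strand-specific libraries from ribosomal RNA-depleted total RNA of whole worms were read by the authors with kallisto 0.43.0-1 against Ensembl cDNA sequences of WBcel235 and analysed with DESeq2 1.16.1. The authors deposited variance-stabilized log2 values for 16 libraries, and for 4 comparisons tables of mean counts, fold changes and p-values, which were not used. The transformation was inverted: 100% of the recovered counts lay less than 0.01 from a whole number of reads. Reads without a gene name, 0.177% to 0.531% of a library, were left out of totals. All 37 genes were matched to Ensembl annotation 115, which gave transcript lengths.

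Tests used limma 3.58.1 in R 4.3.3 (eBayes with trend, 4 group means, 12 residual degrees of freedom, two-sided). Values in every library are given for genes past the threshold in any contrast and for the largest increase and decrease in each, and *skr-12*, *pas-5* and, in further groups, *uba-1* were added after their values were seen. The members and lists were chosen with earlier results of these data known. The fit was tested on simulated data.

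Deviations from the group means of same-numbered libraries correlated at 0.25 to 0.58 (TM and vehicle, WT) and 0.33 to 0.86 (TM and vehicle, *osm-3*). Between genotypes they correlated at 0.18 to 0.50 with vehicle and at -0.040 to 0.64 with TM. The numbers were taken to pair libraries in all but the last. Libraries of different number were not compared, so this pairing is an assumption, and whether the numbers pair the genotypes with TM is uncertain. Alternatives were filters, the groups in the fit, replicate blocks, eBayes settings, library weights, scalings, log2 of the normalized count plus 1, limma voom on recovered reads, leaving out each library and transcript length defined by the union of exons. The block within each genotype and the length correction were added after seeing the data. No sequences were printed, because no sequence table or genome was used here.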

Additional observations from a re-analysis of the deposited data

Results flagged for a closer look

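In 52 groups of 4 libraries (10 genes, the 2 gene group means and the summed count of the 4 neighbouring *skr* genes), 2 held a library far from the other 3, where chance gives about 1 in 20. The mean log2 value of the proteasome subunits was 11.74 in WT TM replicate 1, against 11.43 to 11.47 in the other WT libraries with TM. The log2 value of *skr-13* was 8.32 in *osm-3* vehicle replicate 2, against 7.94 to 8.01 in the other *osm-3* libraries with vehicle, just past the critical value. Of the 33 tested genes, 0 moved one way with TM in all 4 *osm-3* replicates and the other way in all 4 WT replicates.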

How the results depend on the processing

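The medians with TM in WT animals lay on both sides of 0 (-0.12 to 0.031 for the subunits and -0.063 to 0.018 for the conjugation genes), all other medians stayed below 0 under the alternatives, and the difference between TM responses gave 0 calls under all 28 alternatives. The number of genes passing moved as follows, given without the share of all tested genes at each setting. Wherever that share is given above, it was higher than without the change of setting. The counts alone are therefore no result about these genes. The filter at 3 log2 units left out *skr-3*, *ubc-23*, *skr-8*, *skr-9* and *skr-13*. These genes could not pass under it, so its lower counts do not show that their calls depend on the processing. With TM in WT animals it was 0 with a filter at 3 log2 units and 1 with quantile normalization, and 0 to 2 when single libraries were left out. With TM in *osm-3* mutants it was 16 (2 higher, 14 lower) with library weights, and 0 to 8 when single libraries were left out. The replicate block gave 1 and the replicate block within each genotype 4. The median of the subunits was -0.051 with quantile normalization. For *osm-3* against WT with TM the number was 1 with the filter at 3 log2 units, 1 with only the groups compared, 20 with the replicate block, 14 with library weights, 2 with centring on library medians and 8 with the length correction, and 1 to 21 when single libraries were left out, and the medians were -0.15 (subunits) and -0.11 (conjugation genes) with quantile normalization. With vehicle it was 0 with the filter at 3 log2 units, 4 with only the groups compared, 5 with the replicate block, 1 without trend, 8 (1 higher, 7 lower) with library weights, 1 with centring, 1 with limma voom and 4 with the length correction, and 0 to 3 when single libraries were left out. Between genotypes with TM, replicates 1 to 4 correlated at -0.040, 0.64, 0.62 and 0.029. Whether the numbers pair these libraries is therefore uncertain, and the count of 20 is no measure of a stronger effect.

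2 differences near 0 changed sign. That of *ubc-23* between *osm-3* mutants and WT animals with TM was -0.0025 with library weights, -0.033 with quantile normalization, and -0.036 to 0.061 when single libraries were left out. That of *skr-16* between TM responses was -0.12 with library weights. The cause was not tested. Differences were smaller on the deposited scale than with limma voom on the recovered reads, 0.37 beside 0.85 for *ubc-23* and 0.62 beside 0.84 for *skr-3* with TM in WT animals, and -0.34 beside -0.56 for *skr-9* in *osm-3* mutants against WT animals with TM. With 0 to 51 reads per library, 4 of the 37 genes lay under the filter and were left out of the tests.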
